A study of Mus musculus with 6 samples.

Results

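The Zfp genes are the mouse genes named for zinc finger proteins, in which short loops folded around a zinc ion contact DNA or RNA. They were taken here as all genes whose symbol on the array is Zfp followed by a number, with letters allowed after it. A single-symbol probe set was present for 331 of them, among 18193 genes with such a probe set. Of these, 249 reached the level filter and are described below as the tested Zfp genes, among 13090 genes tested, and 82 lay below it. The members were chosen by symbol and by their mean level over the 6 arrays. RefSeq lists 248 of the 249 as protein coding, so the symbol rule did not take in protein genes only.

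Tumour cells were sorted from mouse lungs by their green fluorescence and profiled on Affymetrix mouse genome arrays, on which each gene is read by sets of short oligonucleotides. The cells were MVT1, 1 mouse mammary tumour line tagged with green fluorescent protein (GFP), and 3000000 of them were injected into a vein of each FVB/N mouse. The 3 groups held 2 arrays each. The GW2580 group received GW2580, an inhibitor of the CSF1 receptor kinase, by daily gavage at 160 mg per kg, starting 1 week after injection and with collection at 2 weeks. The 2-week vehicle group received the carrier, hydroxypropylmethylcellulose with Tween-80, over the same time, and the 1-week vehicle group was collected at 1 week. Each vehicle group came from 2 mice. For the GW2580 arrays the labels do not say how many mice were used, and the spread of that group may be technical. All 3 groups share the line, the tag, the host strain and the route. The sorted cells are a bulk sample, in which fewer cells of a type and less RNA per cell cannot be told apart.

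Most proteins of this family carry runs of C2H2 fingers, in which a pair of cysteines and a pair of histidines hold the zinc ion and neighbouring fingers read successive bases of DNA. Many also carry a KRAB domain, which recruits the corepressor Trim28 and through it the histone methyltransferase Setdb1, so that the bound stretch is packed as heterochromatin. A large share of KRAB zinc finger genes lie side by side in clusters that arose by repeated duplication, and many of their known targets are retrotransposons. Other members use their fingers for other ends, among them mRNA decay (Zfp36), the mitotic spindle (Zfp207) and ribosome assembly (Zfp622).

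Promoters are shown for 4 Zfp genes that rose between 1 and 2 weeks in vehicle cells and for 1 that fell. A RefSeq promoter (GRCm38.p6), running from 250 bases before to 50 bases after the gene start, was listed for 202 of the 249 tested Zfp genes, in 245 windows. The lines below give the gene, its position, its strand and the 300 bases read along the gene, with every match to the 8 motifs searched in capitals.
Zfp945, chr17:22867085-22867384, minus strand: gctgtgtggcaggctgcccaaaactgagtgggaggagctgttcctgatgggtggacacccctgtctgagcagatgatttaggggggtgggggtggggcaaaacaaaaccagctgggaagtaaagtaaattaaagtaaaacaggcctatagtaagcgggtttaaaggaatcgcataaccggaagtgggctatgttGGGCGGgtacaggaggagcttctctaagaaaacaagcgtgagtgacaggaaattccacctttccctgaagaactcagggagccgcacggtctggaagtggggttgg
Zfp365, chr10:67912613-67912912, minus strand: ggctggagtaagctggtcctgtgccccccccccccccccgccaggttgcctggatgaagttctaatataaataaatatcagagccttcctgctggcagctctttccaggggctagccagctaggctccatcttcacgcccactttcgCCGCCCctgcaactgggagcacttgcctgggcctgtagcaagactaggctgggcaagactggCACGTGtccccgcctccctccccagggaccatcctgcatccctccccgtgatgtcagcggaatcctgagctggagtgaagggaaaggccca
Zfp938, chr10:82241231-82241530, minus strand: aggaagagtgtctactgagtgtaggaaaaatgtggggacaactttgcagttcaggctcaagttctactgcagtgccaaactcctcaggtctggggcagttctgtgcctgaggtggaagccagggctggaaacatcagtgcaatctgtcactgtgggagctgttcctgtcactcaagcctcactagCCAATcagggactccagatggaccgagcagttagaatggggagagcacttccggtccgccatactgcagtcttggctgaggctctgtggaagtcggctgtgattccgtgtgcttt
Zfp810, chr9:22307589-22307888, minus strand: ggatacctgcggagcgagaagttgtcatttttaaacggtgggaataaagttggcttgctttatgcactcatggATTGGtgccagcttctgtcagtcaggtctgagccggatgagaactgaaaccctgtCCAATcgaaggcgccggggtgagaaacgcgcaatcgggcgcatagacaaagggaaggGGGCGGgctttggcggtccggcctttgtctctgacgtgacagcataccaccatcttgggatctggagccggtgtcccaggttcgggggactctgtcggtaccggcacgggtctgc
Zfp367, chr13:64153150-64153449, minus strand: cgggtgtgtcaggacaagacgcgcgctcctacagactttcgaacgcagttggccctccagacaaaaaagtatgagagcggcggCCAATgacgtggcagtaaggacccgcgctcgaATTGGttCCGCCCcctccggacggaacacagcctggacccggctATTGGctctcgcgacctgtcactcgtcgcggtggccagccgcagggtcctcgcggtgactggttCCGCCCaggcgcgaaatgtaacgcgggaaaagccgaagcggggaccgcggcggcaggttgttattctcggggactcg
Zfp945, Zfp365, Zfp810 and Zfp938 were among the Zfp genes higher in 2-week than in 1-week vehicle cells, and Zfp367 was lower there. The capitals mark a GC box (GGGCGG, or CCGCCC on the other strand) in Zfp945, a GC box and an E-box (CACGTG) in Zfp365, a CCAAT box in Zfp938, a GC box and CCAAT boxes on both strands in Zfp810, and GC and CCAAT boxes in Zfp367. Zfp938 and Zfp367 each have a second listed start, whose window is not printed. The search covered both strands and also took in the cAMP response element TGACGTCA, the AP-1 site TGAGTCA, the D-box TTACGTAA, the NRF1 site and the ZNF143 motif. None of the 8 motifs contains another. A match is a description of these letters and not a measured binding site.

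Over all tested Zfp genes the windows were rich in CpG, with a median of 17 CpG each against 7 over all 32851 RefSeq promoters, and a median GC content of 57.7% against 52.7%. A GC box stood in 51.4% of the Zfp windows against 35.7% of all promoters, and a CCAAT box in 43.7% against 37.4%. The rarer NRF1 site was in 3.67% of Zfp windows against 0.971% of all, and the ZNF143 motif in 2.04% against 0.286%. The Zfp windows came only from genes above the level filter, while all promoters stood for 27025 genes without such a filter. The family and the filter are therefore not told apart in these shares. Of the 17 Zfp genes higher at 2 weeks, 16 had an entry, with 20 windows between them, and Zfp90 is named only. In those 20 windows the GC box and the CCAAT box each stood in 40%, the E-box and the ZNF143 motif each in 5%, and the other 4 motifs in none. Their median CpG number was 14.5 and their median GC content 53.7%. These shares were not tested.

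On the RMA log2 scale of the arrays, on which 1 unit is a doubling, the median over the tested Zfp genes was 7.05 with quartiles of 6.11 and 7.88, against a median of 8.09 with quartiles of 6.37 and 9.46 over all genes tested. Probe sets differ in how well they bind, so these levels describe probe sets and do not rank genes by expression. Genes just inside the filter were Zfp773 at a mean level of 5.09, Zfp92 at 5.07 and Zfp536 at 5.02. Just outside it lay Zfp521 and Zfp941 at 4.93 each and Zfp58 at 4.92.

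The brightest probe set belonged to Zfp622, whose protein takes part in maturing the large ribosomal subunit. It read 12.39 and 12.38 in GW2580 cells, 12.40 and 12.41 in 2-week vehicle cells and 12.12 and 12.38 in 1-week vehicle cells. The GW2580 and 2-week vehicle values were closer together than the 1-week vehicle pair. Zfp36, or tristetraprolin, which binds AU-rich elements and speeds mRNA decay, followed at 11.62 and 11.55 in GW2580 cells, 10.88 and 11.46 in 2-week vehicle cells and 11.60 and 11.89 in 1-week vehicle cells. Both 2-week vehicle values lay below all the others, and neither comparison passed the test. Zfp207, which binds Bub3 at the kinetochore, read 10.72 and 10.79 in GW2580 cells, 11.16 and 10.88 in 2-week vehicle cells and 11.03 and 11.00 in 1-week vehicle cells. On this probe set the GW2580 values of Zfp207 were below all 4 vehicle values. Its other probe sets above the filter differed by 0.16 and -0.91 between GW2580 and 2-week vehicle cells. Between 1 and 2 weeks in vehicle cells they differed by 0.21 and 0.95. The next were Zfp106, an RNA-binding protein, with a mean level of 10.33, and Zfp445, which keeps genomic imprints in the mouse embryo, with 10.24.

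In vehicle-treated mice, Zfp genes were more often higher than lower at 2 weeks than at 1 week. The test was limma with Benjamini-Hochberg adjustment over all 13090 genes, with a threshold of 0.05 on the adjusted p. By it, 17 of the 249 tested Zfp genes rose and 2 fell, which is 6.83% higher and 0.803% lower, against 3.74% higher and 2.71% lower over all genes tested. In both directions together 7.63% of Zfp genes and 6.45% of all genes were called. The median log2 difference was 0.17 over the Zfp genes and 0.02 over all genes tested, and 181 of the 249 Zfp genes (72.7%) lay above 0, against 52.9% of all genes. Both 2-week vehicle arrays were above both 1-week vehicle arrays for 122 Zfp genes (49.0%, all genes 31.5%) and below them for 33 (13.3%, all genes 25.2%). At an unadjusted p under 0.05, 68 Zfp genes were higher (27.3%, all genes 14.1%) and 5 lower (2.01%, all genes 9.45%). With each array scaled to a common median of the tested genes, 15 Zfp genes rose and 4 fell, with medians of 0.10 over the Zfp genes and -0.05 over all genes. The calls rested on few arrays. The number that rose was 0 without 1-week vehicle replicate 1 (29 higher and 7 lower at an unadjusted p under 0.05), 12 without 1-week vehicle replicate 2, 2 without 2-week vehicle replicate 1 and 5 without 2-week vehicle replicate 2. The number that fell was 0 without any 1 of these 4 arrays.

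**Figure D1:**
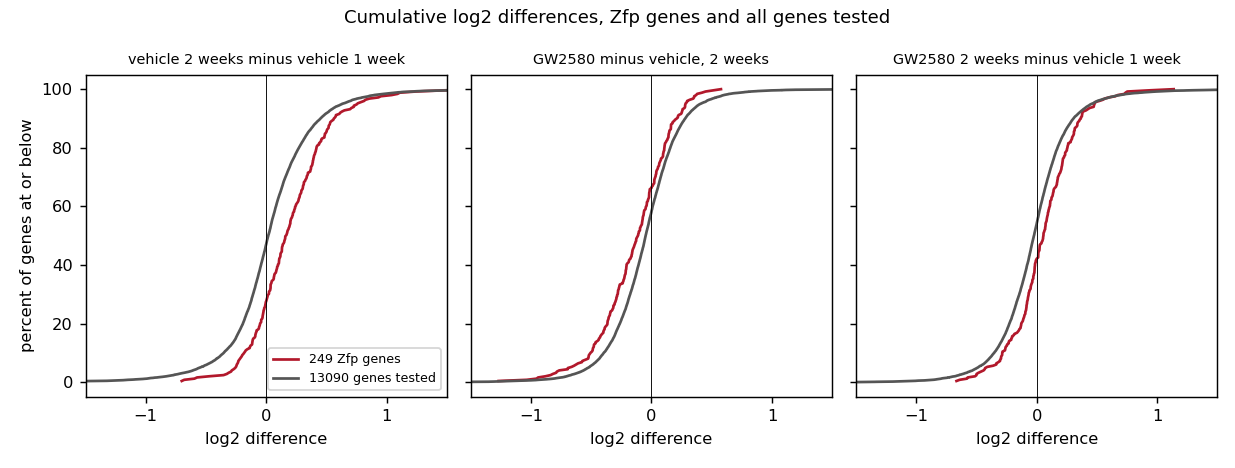
Cumulative share of genes (y axis, percent) at or below each log2 difference (x axis) for the 249 tested Zfp genes (red) and all 13090 genes tested (grey), in the 3 comparisons. In the left panel, 2-week against 1-week vehicle, the red curve lies right of the grey one, with medians of 0.17 and 0.02; in the middle panel, GW2580 against vehicle at 2 weeks, it lies left of it, with medians of -0.11 and -0.05.

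The largest rise was that of Zfp945, which encodes a KRAB zinc finger protein. It read 8.53 and 8.38 in 2-week vehicle cells and 6.47 and 6.92 in 1-week vehicle cells. No 1-week value came within 1 unit of a 2-week value, and the log2 difference was 1.76 ± 0.17 (SE, a 3.40-fold rise, limma adjusted p = 0.0102). Zfp365, whose human counterpart ZNF365 is known for a part in genome stability, read 6.50 and 6.77 in 2-week vehicle cells and 5.0 and 5.32 in 1-week vehicle cells. The groups did not overlap and the difference was 1.47 ± 0.17 (2.77-fold, limma adjusted p = 0.0102).

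Zfp810 and Zfp606 also encode KRAB zinc finger proteins. Zfp810 read 7.30 and 7.13 in 2-week vehicle cells, against 5.79 and 6.17 in 1-week vehicle cells, a difference of 1.24 ± 0.16 (2.36-fold, limma adjusted p = 0.0108). Zfp606 read 6.30 and 5.87 in 2-week vehicle cells, against 5.05 and 4.90 in 1-week vehicle cells, a difference of 1.11 ± 0.17 (2.16-fold, limma adjusted p = 0.0167). In both, every 2-week value was above every 1-week value. Zfp90, a KRAB protein, read 7.39 and 7.34 in 2-week vehicle cells and 6.36 and 6.47 in 1-week vehicle cells, and Zfp560 8.72 and 8.43 in 2-week and 7.51 and 7.78 in 1-week vehicle cells. Their differences were 0.95 ± 0.12 and 0.93 ± 0.17, with limma adjusted p of 0.0112 and 0.0257. Zfp629 rose by 0.86 ± 0.17 (limma adjusted p = 0.0339), with 7.32 and 7.08 in 2-week and 6.16 and 6.53 in 1-week vehicle cells. Zfp938 rose by 0.82 ± 0.13 (limma adjusted p = 0.0200), with 6.24 and 6.02 in 2-week and 5.26 and 5.36 in 1-week vehicle cells. The other 9 that rose were Zfp1, Zfp61, Zfp111, Zfp120, Zfp408, Zfp688, Zfp748, Zfp867 and Zfp956, with differences between 0.52 (Zfp748) and 0.81 (Zfp867). Over all 17, the median difference was 0.81 and the limma adjusted p ran between 0.0102 and 0.048.

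Zfp324 and Zfp367 were the pair that fell. Zfp324 read 5.88 and 5.81 in 2-week vehicle cells and 6.59 and 6.50 in 1-week vehicle cells, a log2 difference of -0.70 ± 0.14 (limma adjusted p = 0.0309). Zfp367 read 6.65 and 6.70 in 2-week vehicle cells and 7.33 and 7.38 in 1-week vehicle cells, a difference of -0.68 ± 0.12 (limma adjusted p = 0.025). Replicates of these genes lay closer together than the groups did, and the groups did not overlap.

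**Figure D2:**
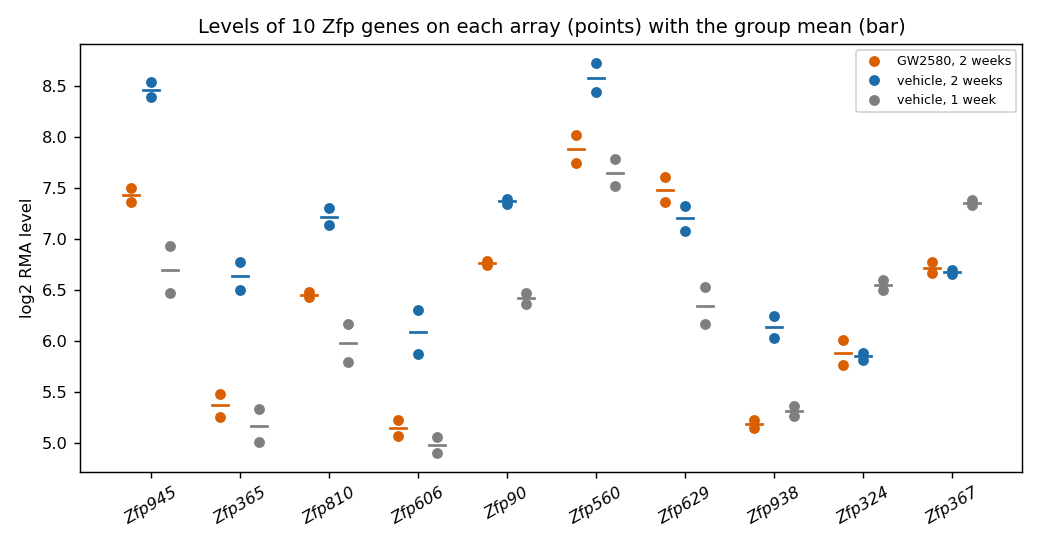
RMA log2 level (y axis) of the 8 Zfp genes that rose most and the 2 that fell between 1 and 2 weeks in vehicle cells (x axis), with a point for each array, a bar for the group mean and, left to right, GW2580, 2-week vehicle and 1-week vehicle cells. The 2-week vehicle points (blue) of Zfp945, Zfp365, Zfp810, Zfp606, Zfp90, Zfp560 and Zfp938 lie above both other groups, while those of Zfp324 and Zfp367 lie beside the GW2580 points and below the 1-week points.

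With GW2580, Zfp genes were lower than with vehicle at 2 weeks in few cases that passed the test. Zfp365 and Zfp938 fell, 2 of 249 (0.803%), against 0.298% of all genes tested in that direction, and in both directions together 0.803% of Zfp genes and 0.367% of all genes were called. No Zfp gene was called higher by limma, against 0.0688% of all genes, and at an unadjusted p under 0.05, 7 were higher (2.81%, all genes 5.36%) and 56 lower (22.5%, all genes 12.6%). The median difference was -0.11 over the Zfp genes and -0.05 over all genes, and 85 Zfp genes (34.1%) lay above 0, against 41.7% of all genes. Both GW2580 arrays were below both 2-week vehicle arrays for 108 Zfp genes (43.4%, all genes 31.5%) and above them for 33 (13.3%, all genes 18.3%). With a common median of the tested genes, the medians were -0.03 over the Zfp genes and 0.04 over all genes. The number that fell was 4 without GW2580 replicate 2 and 0 without any 1 of the other 5 arrays, and fits with a variance trend or with a replicate term gave 7.

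Zfp365 read 5.25 and 5.48 in GW2580 cells, against 6.50 and 6.77 in 2-week vehicle cells. The groups did not overlap, and the difference was -1.27 ± 0.17 (2.41-fold lower, limma adjusted p = 0.0445). Zfp938 read 5.14 and 5.22 in GW2580 cells, against 6.24 and 6.02 in 2-week vehicle cells, with a difference of -0.95 ± 0.13 (1.94-fold lower, limma adjusted p = 0.0445). Zfp945 had the second largest difference among members whose groups did not overlap, with 7.49 and 7.35 in GW2580 cells and 8.53 and 8.38 in 2-week vehicle cells, and missed the threshold (-1.04 ± 0.17, limma adjusted p = 0.0554). Zfp606 and Zfp810 also missed it, at -0.94 (limma adjusted p = 0.0647) and -0.77 (limma adjusted p = 0.0799).

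Among members higher with GW2580 whose groups did not overlap, the largest differences belonged to Zfp672, Zfp385a and Zfp444, and none passed the test. Zfp672 read 7.35 and 7.21 in GW2580 cells and 6.50 and 6.90 in 2-week vehicle cells (0.58 ± 0.16, limma adjusted p = 0.131). Zfp385a, an RNA-binding protein induced by p53, read 6.45 and 5.86 in GW2580 cells and 5.67 and 5.61 in 2-week vehicle cells (0.52 ± 0.19, limma adjusted p = 0.209). The replicates of Zfp385a in GW2580 cells were farther apart than the lower of them was from vehicle. Zfp444 read 7.48 and 7.42 in GW2580 cells and 7.39 and 6.62 in 2-week vehicle cells, with a spread in vehicle larger than the difference (0.45 ± 0.23, limma adjusted p = 0.344).

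GW2580 cells at 2 weeks were also set against 1-week vehicle cells. Zfp629 was the single Zfp gene called, 0.402% of the 249 against 0.512% of all genes. It read 7.36 and 7.60 in GW2580 cells and 6.16 and 6.53 in 1-week vehicle cells, a rise of 1.14 ± 0.17 (2.20-fold, limma adjusted p = 0.040). Its 2-week vehicle values of 7.32 and 7.08 stood near the GW2580 values, with a difference of 0.28 ± 0.17 (limma adjusted p = 0.429). The call was lost without 1-week vehicle replicate 1, either 2-week vehicle array or GW2580 replicate 2. The median over Zfp genes was 0.06 (all genes -0.02), 145 (58.2%) lay above 0 (all genes 45.8%), and at an unadjusted p under 0.05, 25 were higher (10%, all genes 6.64%) and 13 lower (5.22%, all genes 10.4%). Groups that did not overlap were found for 62 Zfp genes on the higher side (24.9%, all genes 18.8%) and 47 on the lower side (18.9%, all genes 27.9%). Without 1-week vehicle replicate 1 the median over Zfp genes was -0.0019.

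Zfp647 and Zfp362 had the next largest differences upward among members whose groups did not overlap. Zfp647 read 6.76 and 7.02 in GW2580 cells and 5.20 and 6.71 in 1-week vehicle cells, and Zfp362 8.09 and 8.05 in GW2580 cells and 6.93 and 7.71 in 1-week vehicle cells. In both genes 1-week vehicle replicate 1 was the low array, and neither passed the test, at 0.93 (limma adjusted p = 0.294) and 0.75 (limma adjusted p = 0.262). Downward, Zfp324 (-0.67, limma adjusted p = 0.0762), Zfp367 (-0.64, limma adjusted p = 0.0703) and Zfp948 (-0.58, limma adjusted p = 0.192) had the largest differences, and none passed the test.

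The 3 comparisons share arrays, since the 2-week vehicle pair is the upper arm of the first and the lower arm of the second, so their signs are not independent and their values are given side by side only. The 17 Zfp genes that rose in vehicle cells by 0.52 to 1.76 had GW2580 minus vehicle differences between -1.27 and 0.28, with a median of -0.55. Against 1-week vehicle, their GW2580 differences lay between -0.13 and 1.14, with a median of 0.25. In the order GW2580 against 2-week vehicle, 2-week against 1-week vehicle and GW2580 against 1-week vehicle, Zfp365 had -1.27, 1.47 and 0.20. Zfp938 in that order had -0.95, 0.82 and -0.13, and Zfp120 had -0.69, 0.71 and 0.01. Zfp629 differed from these, with 0.28, 0.86 and 1.14. Zfp324 had 0.04, -0.70 and -0.67 and Zfp367 had 0.04, -0.68 and -0.64, so that their GW2580 levels were those of 2-week vehicle cells within the SE of 0.14 and 0.12.

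The arrays themselves differed in how the family stood. With each gene set against its own mean over the 6 arrays, the median deviation of the Zfp genes was -0.05 and -0.01 on the GW2580 arrays, 0.08 and 0.12 on the 2-week vehicle arrays and -0.14 and -0.01 on the 1-week vehicle arrays. The share of Zfp genes above their own mean was 42.6% and 48.2% with GW2580, 63.5% and 74.7% in 2-week vehicle and 24.1% and 45.8% in 1-week vehicle cells. The same share over all genes was 37.3% and 50.7% with GW2580, 51.3% and 60.1% in 2-week vehicle and 50.1% and 50.9% in 1-week vehicle cells. The 2-week vehicle arrays were thus the highest pair, and 1-week vehicle replicate 1 was the lowest single array, apart from its own replicate by more than the GW2580 arrays were from each other.

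**Figure D3:**
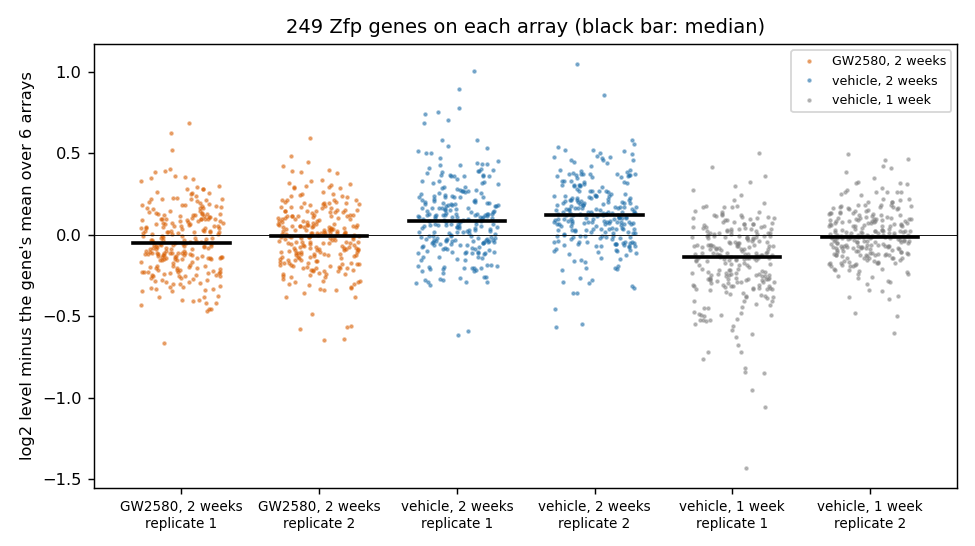
Each of the 249 tested Zfp genes (points) as its RMA log2 level minus its own mean over the 6 arrays (y axis), by array (x axis), with a black bar at the median. The bars lie at -0.05 and -0.01 for GW2580, 0.08 and 0.12 for 2-week vehicle and -0.14 and -0.01 for 1-week vehicle, and the longest lower tail belongs to 1-week vehicle replicate 1.

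A sign of RNA quality and the markers of other cells also differed between arrays. The 3' minus 5' difference of the actin control probe sets, which widens with shortened RNA, was 1.20 on 2-week vehicle replicate 2 and 0.38 to 0.50 on the other 5 arrays. Without that array the median of the Zfp genes between 2-week and 1-week vehicle was 0.16 and that of all genes 0.0016, and the median of GW2580 against vehicle was -0.11 over Zfp genes. Of 12 fibroblast and smooth muscle markers 10 were tested and none was called in any comparison (limma), and their mean level was 7.73 and 7.11 with GW2580, 7.24 and 7.30 in 2-week vehicle and 8.37 and 7.57 in 1-week vehicle cells. At an unadjusted p under 0.05, 1 was higher (10%, all genes 5.36%) and 1 lower (10%, all genes 12.6%) with GW2580 against vehicle. Between 1 and 2 weeks none was higher (all genes 14.1%) and 5 were lower (50%, all genes 9.45%), with a median of -0.62. Against 1-week vehicle, 1 was higher (10%, all genes 6.64%) and 5 were lower (50%, all genes 10.4%) with GW2580. Of 15 lung epithelial markers 14 were tested, with mean levels of 7.18 and 6.37 with GW2580, 6.85 and 6.89 in 2-week vehicle and 7.42 and 7.01 in 1-week vehicle cells. With GW2580, 6 of the 14 lay above 0 and 8 below. By limma 2 fell (14.3%, all genes 0.298%), the surfactant protein genes Sftpa1 (-1.78) and Sftpd (-1.12). At an unadjusted p under 0.05, 1 was higher (7.14%, all genes 5.36%) and 7 lower (50%, all genes 12.6%). The 1 higher was Hopx (0.34), and the 7 lower also held Sftpc (-2.07), Ager (-0.69), Napsa (-0.59), Sftpb (-0.46) and Aqp5 (-0.43). The club cell genes Scgb1a1 (1.97), Scgb3a2 (1.64) and Cyp2f2 (1.14) differed upward without passing the test. Between 1 and 2 weeks in vehicle cells, Sftpd rose (0.89), and Scgb1a1 (-3.16), Scgb3a2 (-2.26) and Cyp2f2 (-1.61) were not called. Of 19 macrophage and monocyte markers 17 were tested, with mean levels of 6.74 and 7.07 with GW2580, 7.01 and 7.13 in 2-week vehicle and 7.08 and 7.08 in 1-week vehicle cells. Ptprc, carried by all white blood cells, fell between 1 and 2 weeks (-0.61, limma adjusted p = 0.0387). None of the 17 was called with GW2580 against vehicle. At an unadjusted p under 0.05, 0 were higher (all genes 5.36%) and 2 lower (11.8%, all genes 12.6%) with GW2580. The 2 lower were C1qa (-0.73) and C1qc (-0.58). With GW2580, 3 of the 17 lay above 0 (17.6%, all genes 41.7%) and 14 below, with a median of -0.12 (all genes -0.05). No tested marker of neutrophils, lymphocytes, endothelium or red cells and platelets was called in any comparison. The part of RNA quality and of these cells in the Zfp differences was not tested. Of 15 mammary epithelial markers, which the tumour line should carry, 11 were above the filter, with means of 8.11 and 8.23 with GW2580, 7.90 and 7.95 in 2-week vehicle and 8.29 and 8.11 in 1-week vehicle cells. Of these 11, both 2-week vehicle arrays were below both 1-week vehicle arrays for 8 (72.7%, all genes 25.2%) and above them for none (all genes 31.5%). The casein gene Csn3 was the 1 called, and fell between 1 and 2 weeks (-0.95, limma adjusted p = 0.0294).

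Many genes of the family have more than 1 probe set, which allows the same gene to be read again. Above the filter, 127 further probe sets read 84 of the tested Zfp genes, at a median level of 6.13 against 7.97 for the probe sets kept. Between 1 and 2 weeks in vehicle cells, 80 of the 127 (63%) had the sign of the kept probe set, against 67.2% of 10018 further probe sets over all genes. Their median difference was 0.07, against 0.19 for the kept probe sets of the same genes. For GW2580 against vehicle the sign was shared by 69 (54.3%, all genes 64.9%), with a median of 0.0006 against -0.10 for those kept. Among the genes called, the further probe set of Zfp945 gave 0.99 between 1 and 2 weeks and -0.48 with GW2580, where the kept one gave 1.76 and -1.04. Those of Zfp111 and Zfp606 gave -0.06 and 0.09 between 1 and 2 weeks, where the kept ones gave 0.73 and 1.11. Probe sets of a gene can read different transcript ends, and which of them reads the gene better was not tested.

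**Figure D4:**
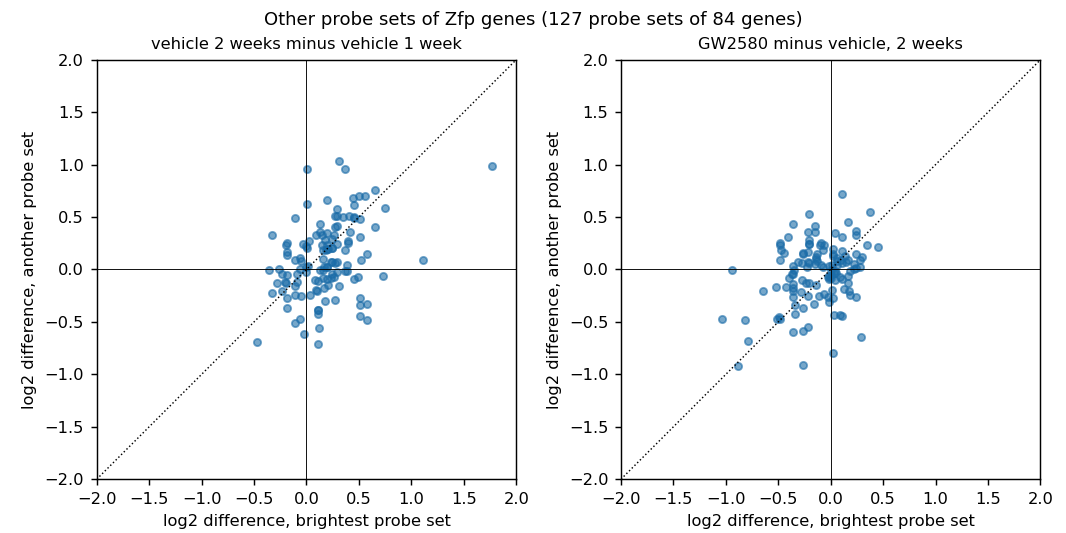
Log2 difference of each of 127 further probe sets of 84 tested Zfp genes (y axis) against that of the gene's kept, brightest probe set (x axis), for 2-week against 1-week vehicle (left) and GW2580 against vehicle at 2 weeks (right), with the dotted line marking equal values. The point farthest right in the left panel is Zfp945 (1.76 and 0.99), and the points spread widely about the line in both panels.

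The median shift between 1 and 2 weeks in vehicle cells differed little between dim and bright members. In 3 bands of 83 Zfp genes, dim, middle and bright, the medians were 0.18, 0.13 and 0.18. The genes that rose numbered 8, 6 and 3 (all genes 3.74%). With GW2580 against vehicle the medians were -0.16, -0.15 and -0.09, and both genes that fell (all genes 0.298%) were in the dim band. Of the kept probe sets 219 had the plain suffix, 13 read several transcripts of 1 gene, and 6 and 11 were of the kinds that can match other genes. None of these last 17 was called in any of the 3 comparisons. Over all genes 6.45% were called between 1 and 2 weeks, 0.367% with GW2580 against vehicle and 0.512% with GW2580 against 1-week vehicle. So 0 of 17 is near the background.

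Genes with known roles were described whatever their values, in 36 genes chosen for function. Of them 28 passed the filter, and none was called by limma in any of the 3 comparisons. Over all genes 0.367% were called with GW2580 against vehicle, 6.45% between 1 and 2 weeks and 0.512% with GW2580 against 1-week vehicle, so 0 of 28 is near the background. At an unadjusted p under 0.05, 3 of the 28 were higher (all genes 5.36%) and 4 lower (all genes 12.6%) with GW2580 against vehicle. Between 1 and 2 weeks 3 were higher (all genes 14.1%) and 2 lower (all genes 9.45%). Against 1-week vehicle, 2 were higher (all genes 6.64%) and 1 lower (all genes 10.4%) with GW2580. Below the filter lay Zfp57, Zfp30 and Zfp708 among the KRAB repressors, Zfp423, Zfp521, Zfp467 and Zfp503 among the lineage factors, and Zfp711. Among the KRAB repressors above it, Zfp568, which silences a placental Igf2 transcript in the mouse embryo, differed by 0.22 with GW2580 and by -0.24 between 1 and 2 weeks. Zfp809, which represses retroviruses in mouse stem cells, differed by 0.06 with GW2580 and -0.29 between 1 and 2 weeks, and Zfp932, a repressor of endogenous retroviruses, by -0.03 with GW2580 and 0.05 between 1 and 2 weeks. Zfp445 read 10.62 and 10.05 in GW2580 cells, 10.30 and 10.32 in 2-week vehicle cells and 9.97 and 10.18 in 1-week vehicle cells, so that the GW2580 replicates lay on either side of both 2-week vehicle values.

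Of the promoter-binding factors, Zfp148, Zfp219 and Zfp281, which bind GC-rich stretches, differed with GW2580 by 0.25, 0.26 and -0.16 and between 1 and 2 weeks by -0.19, -0.02 and 0.17. Zfp462 came nearest to a call between 1 and 2 weeks, with 7.06 and 6.91 in 2-week vehicle cells and 7.39 and 7.53 in 1-week vehicle cells (-0.47 ± 0.13, limma adjusted p = 0.0664). Zfp692 read 8.10 and 8.19 in GW2580 cells and 8.58 and 8.87 in 2-week vehicle cells (-0.58 ± 0.16, limma adjusted p = 0.133). In both genes the groups did not overlap. Zfp335 and Zfp64 differed by 0.15 or less in size in both comparisons.

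Of the tumour factors, Zfp217, whose human counterpart is amplified in breast cancer, read 9.12 and 9.0 in GW2580 cells, 8.95 and 8.98 in 2-week vehicle cells and 8.73 and 8.97 in 1-week vehicle cells. Zfp703, whose human counterpart is amplified in luminal breast cancer, read 9.42 and 9.52 in GW2580 cells, 9.15 and 9.24 in 2-week vehicle cells and 8.91 and 9.0 in 1-week vehicle cells. On this probe set the 3 groups of Zfp703 did not overlap, and the difference of GW2580 from 1-week vehicle was 0.52 (limma adjusted p = 0.0983). The further probe sets of Zfp703 above the filter gave 0.05 and 0.09 for that difference. Zfp750, a factor of epidermal differentiation, differed by 0.29 with GW2580 and by -0.09 between 1 and 2 weeks.

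Other members act on RNA, ribosomes, ubiquitin or SUMO. Zfp106 read 10.08 and 10.31 in GW2580 cells, 10.48 and 10.88 in 2-week vehicle cells and 10.07 and 10.13 in 1-week vehicle cells, with differences of -0.49 for GW2580 and 0.58 between 1 and 2 weeks (limma adjusted p = 0.191 and 0.0784). The further probe sets of Zfp106 above the filter had the opposite signs. They gave 0.23 and 0.25 with GW2580 and -0.33 and -0.48 between 1 and 2 weeks. Zfp598, a ubiquitin ligase that marks collided ribosomes, differed by -0.44 with GW2580 and 0.30 between 1 and 2 weeks. Zfp346, which binds double-stranded RNA, differed by -0.41 with GW2580 and 0.46 between 1 and 2 weeks, and Zfp593 by -0.42 with GW2580 and 0.37 between 1 and 2 weeks. In the same order, the further probe set of Zfp346 gave 0.31 and -0.10, and that of Zfp593 -0.16 and -0.02. Differences with GW2580 were smaller for the SUMO ligase Zfp451 (-0.15), the ubiquitin ligase Zfp91 (-0.22), Zfp326, which joins splicing to elongation (0.00), and Zfp638 (0.03). Between 1 and 2 weeks these 4 differed by 0.11, 0.17, -0.09 and -0.33. Zfp277 differed by -0.21 with GW2580 and 0.31 between 1 and 2 weeks, and its further probe set above the filter gave 0.36 and -0.16. Zfp830 differed by -0.24 with GW2580 and 0.19 between 1 and 2 weeks. The further probe sets of Zfp451 above the filter gave 0.35, 0.05 and 0.42 with GW2580 and -0.38, -0.11 and -0.71 between 1 and 2 weeks. Those of Zfp638 gave -0.03 and -0.44 with GW2580 and -0.22 and 0.33 between 1 and 2 weeks.

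Zfp36 was not called, and of 22 tested transcripts listed as targets of its protein 10 were called between 1 and 2 weeks (45.5%, all genes 6.45%). Binding was not measured in these data, and a part of Zfp36 in these differences was not tested. Zfp36 differed by 0.42 ± 0.20 with GW2580 (limma adjusted p = 0.318) and by -0.57 ± 0.20 between 1 and 2 weeks (limma adjusted p = 0.131). Of 22 tested transcripts with AU-rich elements that it is known to bind, 9 fell (40.9%, all genes 2.71%) and 1 rose (4.55%, all genes 3.74%) between 1 and 2 weeks in vehicle cells, with a median of -0.63. Among those that fell were the cytokine Csf2 (-2.17), the prostaglandin synthase Ptgs2 (-2.11) and the chemokine Cxcl1 (-1.66), and Myc rose (0.98). With GW2580 none of the 22 was called by limma (all genes 0.367%), 11 were higher (50%, all genes 5.36%) and 1 lower (4.55%, all genes 12.6%) at an unadjusted p under 0.05, and the median was 0.48. Csf2 read 6.95 and 5.62 in GW2580 cells, 5.25 and 5.38 in 2-week vehicle cells and 7.81 and 7.16 in 1-week vehicle cells, with GW2580 replicates farther apart than the vehicle pairs. The relatives Zfp36l1 and Zfp36l2, outside the symbol rule, had mean levels of 10.11 and 11.33 and differences of 0.36 and -0.08 with GW2580, and neither was called.

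Genes for the corepressors through which KRAB proteins act were listed beside the family. Of 24 tested genes for KRAB corepressors and heterochromatin, 2 fell between 1 and 2 weeks (8.33%, all genes 2.71%) and none rose (all genes 3.74%), with a median of -0.05. The pair was Suv39h2, a histone H3 lysine methyltransferase, at -0.77 (limma adjusted p = 0.0218), and Uhrf1, which brings DNA methylation to newly copied DNA, at -0.89 (limma adjusted p = 0.0389). None of the 24 was called by limma with GW2580. At an unadjusted p under 0.05, 0 were higher (all genes 5.36%) and 1 lower (4.17%, all genes 12.6%) with GW2580. Trim28 read 11.64 and 11.87 in GW2580 cells, 11.58 and 11.67 in 2-week vehicle cells and 11.47 and 11.65 in 1-week vehicle cells, and Setdb1 read 9.03 and 9.05 in GW2580 cells, 8.81 and 9.12 in 2-week vehicle cells and 9.07 and 9.17 in 1-week vehicle cells. Both showed overlapping groups between 2-week and 1-week vehicle. Of 20 tested imprinted genes, Impact rose (0.62) and Kcnq1ot1 fell (-1.02) between 1 and 2 weeks, with a median of -0.11. Each is 5% of the 20, against 3.74% higher and 2.71% lower over all genes. None was called by limma with GW2580. At an unadjusted p under 0.05, 2 were higher (10%, all genes 5.36%) and 2 lower (10%, all genes 12.6%) with GW2580.

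Related zinc finger genes with other names, the Zbtb, Zscan and Zkscan genes, gave a comparison by name. Of 51 tested, Zkscan8 (1.18) and Zkscan5 (1.08) rose between 1 and 2 weeks and none fell, which is 3.92% against 6.83% of Zfp genes and 3.74% of all genes. Their median was 0.06, and 56.9% lay above 0, against 0.17 and 72.7% for the Zfp genes. With GW2580 none was called by limma, and the median was 0.01, against -0.11 for the Zfp genes. At an unadjusted p under 0.05, 3 were higher (5.88%, all genes 5.36%) and 4 lower (7.84%, all genes 12.6%) with GW2580. The difference between the 2 sets was not tested.

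Gene order was taken from RefSeq (GRCm38.p6), and 117 of the tested Zfp genes stood next to another Zfp gene. Between 1 and 2 weeks in vehicle cells, their median was 0.20 with 8 genes that rose and 1 that fell (all genes 3.74% and 2.71%). The other 132 had a median of 0.13 with 9 that rose and 1 that fell. With GW2580 the medians were -0.20 and -0.08, and both genes that fell (all genes 0.298%) were among the 132. Over all tested Zfp genes, 72.7% lay above 0 between 1 and 2 weeks and 34.1% with GW2580. Runs are described beside these shares, and differences between runs were not tested. In the run Zfp786 to Zfp746, all 6 tested members lay above 0 between 1 and 2 weeks, with a median of 0.38, and Zfp956 rose. In the run Zfp760 to Zfp994, all 5 lay above 0 (median 0.37), and with GW2580 all 5 lay below 0 (median -0.36). None of these 5 was called in either. In the run Zfp84 to Zfp146, which holds the genes Zfp568 and Zfp82, the medians over 9 genes were -0.04 between 1 and 2 weeks and 0.05 with GW2580. The run Zfp180 to Zfp94 held 2 genes that rose, Zfp111 and Zfp61, among 8 tested. Neighbours can share probe letters, so members of a run are not independent.

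**Figure D5:**
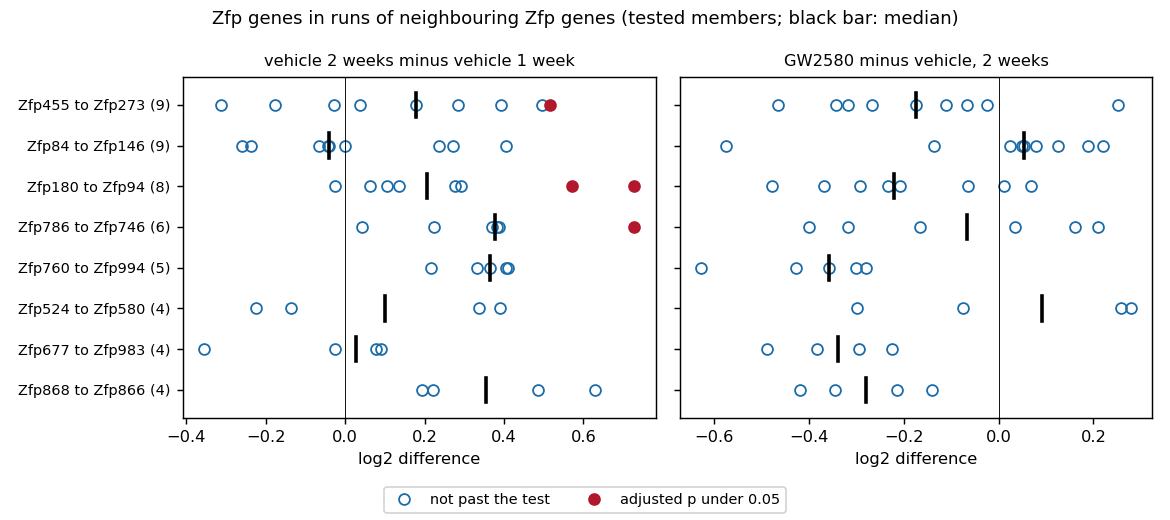
Log2 differences (x axes) of tested Zfp genes in 8 runs of neighbouring Zfp genes (rows, named by their first and last gene, with the number tested), for 2-week against 1-week vehicle (left) and GW2580 against vehicle at 2 weeks (right). Open points did not pass the test, filled points had an adjusted p under 0.05, and the black bar is the run's median, which lies at 0.38 for Zfp786 to Zfp746 and -0.04 for Zfp84 to Zfp146 on the left.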

How the data were processed

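The authors deposited 1 table of log2 values for 45101 probe sets. Per the submitters' processing notes these come from RMA, with no version named. RMA subtracts background, gives every array the same probe distribution by quantile normalisation and merges probes into probe sets, which hides a change common to most genes. An array has no read depth, and with 2 arrays a group the precision is limited by their number. Control probe sets (64) stayed out of the fit. Of the others, 34945 had 1 gene symbol in GEO's platform annotation, 932 several and 9160 none. All 331 Zfp genes matched RefSeq by gene ID with their symbol unchanged. A further 14 Zfp genes, on probe sets of several symbols only, are not analysed here. Per gene the probe set with the highest mean was kept, if that mean was at least 4.97, the 40th percentile of the means of the others. limma 3.58.1 in R 4.3.3 was fitted to all 6 arrays with a mean per group (3 residual and 4.97 prior degrees of freedom, prior SD 0.147), and checked on simulated data. Errors are SE. P-values measure the spread between these arrays. A permutation of 2 arrays against 2 cannot go below a two-sided p of 0.333. Genes were named by a rule: called genes (the 8 largest in each direction where over 12), the 3 largest without overlap where few were called, the 5 brightest, those at the filter's edge, and listed roles. The members, lists and rule were chosen with earlier results of these data known. Alternatives were other filters, scalings, probe set choices, variance models, array sets and a replicate term. The labels do not say whether arrays of the same replicate number belong together. Over the genes tested, the replicate 1 minus replicate 2 difference correlated at 0.00 between 1-week and 2-week vehicle. It correlated at 0.01 between 2-week vehicle and GW2580 and at 0.29 between 1-week vehicle and GW2580. A shared handling of same-numbered arrays was not tested, and the main fit held no replicate term.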

Additional observations from a re-analysis of the deposited data

How the results depend on the processing

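Over 17 alternatives, the 22 named Zfp differences kept their direction and their side of the threshold in 310 cases, lost the threshold in 51, passed it in 5 and reversed in 0. The 310 include differences that were not called in the main fit and so had no threshold to lose. All 51 losses came from differences that were called in the main fit. With 1 array left out at a time, Zfp genes higher between 1 and 2 weeks numbered 0 to 18 and lower ones 0 to 2, with a median of 0.1217 to 0.2508, and 0 to 1059 of all genes were called. For GW2580 against vehicle the same fits gave 0 to 4 Zfp genes lower and 0 to 167 of all genes called. For GW2580 against 1-week vehicle they gave 0 to 1 higher, 0 to 1 lower, 0 to 169 of all genes and a median of -0.0019 to 0.1384, reversed without 1-week vehicle replicate 1, while the median of all genes ran between -0.0554 and 0.0034, reversed without GW2580 replicate 1. The lone array of a group was assumed to vary like the other groups.

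With the 60th percentile filter, 9 Zfp genes rose and 1 fell between 1 and 2 weeks and 0 were lower with GW2580, with fewer genes tested. With every probe set tested on its own, 10 rose, 149 probe sets lay above 0 with GW2580, 111 probe sets in all were called with GW2580 and 32 against 1-week vehicle, where 0 Zfp probe sets were higher, and the median of all was -0.0011 between 1 and 2 weeks. The mean of all probe sets of a gene also gave 0 Zfp genes higher against 1-week vehicle. Without a level filter 74 genes were called with GW2580.

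Scaling to a common median of the tested genes gave 4 Zfp genes lower between 1 and 2 weeks, medians of 0.0986 between 1 and 2 weeks and -0.0269 with GW2580 over Zfp genes, medians of -0.0521 and 0.0353 over all genes, and 102 genes called against 1-week vehicle. A common 75th percentile moved the median of all genes between 1 and 2 weeks to -0.0188. A variance trend with robust fitting gave 7 Zfp genes lower and 131 genes in all with GW2580, and 139 genes against 1-week vehicle. Fitting only the 4 arrays compared gave 0 Zfp genes lower and 0 genes in all with GW2580, and 0 Zfp genes higher and 24 genes in all against 1-week vehicle. The replicate number as a block gave 7 Zfp genes lower and 154 genes in all with GW2580, and 182 genes against 1-week vehicle. The labels do not say what arrays of the same number share. The causes were not tested.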
